A study of Mus musculus with 3 samples.

Results

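The 33 genes described here are induced by interferon in many cell types, and they were followed across the white cell classes of mouse blood. They were chosen by symbol from the 31053 genes of the deposited table, and all 33 were found there. Over the 5 largest cell classes they ranged from 297 unique molecular identifiers (UMIs, 1 per captured RNA molecule) for Phf11d to 16396 for Trim30a. The cells were blood leukocytes of C57/BL6J mice, taken after red cell lysis and measured by droplet 3' single-cell RNA sequencing. Per the labels there are 3 groups with 1 library each: Con at 0 h, SD24h at 24 h and SD48h at 48 h of sleep deprivation. Each library pooled the leukocytes of 3 mice, with about 7000 cells planned. A pool of mice gives 1 value, so differences between mice cannot be seen.

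The barcodes in the single table end in 1, 2 or 3, read here as libraries 1, 2 and 3. The labels do not say which ending belongs to which group. For that reason the libraries are described by number, without a control, a treatment effect or a time course. Each library's value is given instead, with exact 95% intervals (Poisson for summed UMIs, Clopper-Pearson for shares of cells, conditional for ratios) that cover counting error only. The upper limit for a count of 0 is set at 3 UMIs or 3 cells instead. The libraries held 8815, 6648 and 6741 barcodes, with 40807434, 30114546 and 36523283 UMIs and a median mitochondrial share of 6.65%, 1.03% and 4.32%. Between 17 and 23 barcode sequences were shared by each pair of libraries, at most 0.341% of the smaller one. After filtering, 18217 cells were kept, of which 17260 fell into neutrophil-, monocyte-, B-, T- and NK-like classes named from marker genes. The 33 genes and the other interferon-induced genes were left out of the clustering, so that they did not define the classes. The classes held their own markers. Per 1000000 UMIs of a class in a library (CPM), neutrophil markers summed to 141021, 299407 and 365395 in neutrophil-like cells, monocyte markers to 38462, 46040 and 31037 in monocyte-like cells and B cell markers to 18728, 19058 and 18919 in B-like cells. T cell markers summed to 7648, 8500 and 8288 CPM in T-like and NK markers to 39797, 45624 and 41448 in NK-like cells. The libraries differed in their makeup. Neutrophil-like cells numbered 537, 3152 and 1921 and B-like cells 4131, 1398 and 1975 in libraries 1, 2 and 3. The 3 neutrophil-like clusters were divided by library: 529 of the 556 cells of the cluster led by Cd101 came from library 1, and that library had 6 and 2 cells in the clusters led by Il1b and Ngp.

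Type I and type III interferons, and for a subset of these genes interferon gamma, signal through receptors coupled to the kinases Jak1, Jak2 and Tyk2. The type I signal reaches DNA as a complex that includes Stat2 and Irf9 and binds the interferon-stimulated response element (ISRE), while the interferon gamma signal acts through gamma-activated sites (GAS). Target genes encode sensors of foreign RNA and DNA, proteins that block viral RNA or protein synthesis, and inhibitors that end the signal. Uninfected animals keep a low level of many of these genes in blood cells.

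The promoters are shown first because they hold the element through which interferon acts on many of these genes. RefSeq promoter windows (build GRCm38.p6, 250 bases before to 50 bases after the start) were matched by symbol for 28 of the 33 genes, and Mx1, Oas2, Rtp4, Usp18 and Zbp1 had no window. The ISRE was searched as GAAANNGAAA and its reverse TTTCNNTTTC, and the GAS as TTCNNNGAA, whose reverse is the same letters. An ISRE match stood in the window of 17 of the 28 genes, against 1079 of 27025 genes with a window (3.99%). A GAS match stood in 4 of the 28 (Bst2, Gbp7, Ifit2 and Isg20), against 9.55% of all genes. Capitals mark the ISRE matches in the stretches, which run 5' to 3' on the gene's strand and stop before the first annotated base of the gene. A match is a description of letters and not of a bound site.

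The Ifit genes lie side by side on chromosome 19, between 34550694 and 34650009, in the order Ifit2, Ifit3, Ifit3b and Ifit1. Ifit3 and Ifit3b are near-identical copies, and 138 of 168 aligned bases of their stretches were the same (82.1%). Each of the 3 promoters holds the pair TTTCACTTTC and TTTCAGTTTC, and these 3 genes had the highest median ratios in the high-scoring cells. This did not extend to the set. The 17 genes with an ISRE match had a median of 5.92 over their ratios, and the 11 without a match 8.72. A link between the matches and the ratios was not tested. The stretches are chr19:34640689-34640870, plus strand for Ifit1, chr19:34583329-34583528, plus strand for Ifit3 and chr19:34607757-34607956, plus strand for Ifit3b.
Ifit1: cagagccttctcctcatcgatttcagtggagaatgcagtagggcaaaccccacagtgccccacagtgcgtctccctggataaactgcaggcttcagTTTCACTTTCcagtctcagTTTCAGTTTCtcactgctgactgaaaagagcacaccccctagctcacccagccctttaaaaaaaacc
Ifit3: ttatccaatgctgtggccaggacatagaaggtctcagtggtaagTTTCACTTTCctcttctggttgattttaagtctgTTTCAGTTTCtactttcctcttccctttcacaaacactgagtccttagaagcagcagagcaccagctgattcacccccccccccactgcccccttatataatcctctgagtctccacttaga
Ifit3b: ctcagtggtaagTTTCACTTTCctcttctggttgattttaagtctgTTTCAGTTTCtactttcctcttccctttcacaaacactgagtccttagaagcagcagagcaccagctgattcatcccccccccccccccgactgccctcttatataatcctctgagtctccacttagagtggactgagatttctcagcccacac

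Isg15, a ubiquitin-like protein that is attached to other proteins, has 3 overlapping matches, 78, 72 and 66 bases before its start. Rsad2 (viperin, an enzyme that makes a chain-terminating nucleotide) has 1 match 120 bases before its start, and Oas3, a maker of the second messenger that switches on RNase L, has 1 at 75 bases. Gbp7, a guanylate-binding protein, has 1 at 53 bases. The stretches are chr4:156200819-156201018, minus strand for Isg15, chr12:26456453-26456652, minus strand for Rsad2, chr5:120777662-120777759, minus strand for Oas3 and chr3:142530236-142530335, plus strand for Gbp7.
Isg15: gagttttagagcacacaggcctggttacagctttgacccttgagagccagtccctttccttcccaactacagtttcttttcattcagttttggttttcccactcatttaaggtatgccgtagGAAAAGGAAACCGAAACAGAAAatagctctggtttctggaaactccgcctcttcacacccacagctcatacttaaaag
Rsad2: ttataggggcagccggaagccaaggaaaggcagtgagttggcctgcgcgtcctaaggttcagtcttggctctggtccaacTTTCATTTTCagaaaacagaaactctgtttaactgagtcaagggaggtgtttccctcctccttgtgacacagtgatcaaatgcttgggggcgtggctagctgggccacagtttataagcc
Oas3: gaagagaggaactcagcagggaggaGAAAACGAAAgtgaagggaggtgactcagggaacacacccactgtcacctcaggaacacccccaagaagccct
Gbp7: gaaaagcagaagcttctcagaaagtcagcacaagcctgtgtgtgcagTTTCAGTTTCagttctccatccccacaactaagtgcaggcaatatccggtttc

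The 4 members of the Ifi200 family, whose human relatives include a cytosolic DNA sensor, lie on chromosome 1 between 173468485 and 173698395. All 4 carry the same 10 letters, GAAATCGAAA, 40, 58, 73 and 79 bases before the starts of Ifi206, Ifi208, Ifi213 and Ifi214. Over the aligned part, the stretches of Ifi208 and Ifi213 were identical in 83 of 83 bases and those of Ifi206 and Ifi213 in 64 of 65. This likeness is of promoter stretches, and the transcripts were not compared. Related genes can share reads. The division of UMIs among the Ifi200 genes, and between Ifit3 and Ifit3b, Oasl1 and Oasl2, or Gbp2 and Gbp7, was not checked and is uncertain. The stretches are chr1:173491319-173491418, minus strand for Ifi206, chr1:173673565-173673664, plus strand for Ifi208, chr1:173599275-173599372, minus strand for Ifi213 and chr1:173535958-173536057, minus strand for Ifi214.
Ifi206: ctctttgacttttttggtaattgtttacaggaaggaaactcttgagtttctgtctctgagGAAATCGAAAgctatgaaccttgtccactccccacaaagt
Ifi208: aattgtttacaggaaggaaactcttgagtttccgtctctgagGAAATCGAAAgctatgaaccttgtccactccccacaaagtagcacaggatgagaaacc
Ifi213: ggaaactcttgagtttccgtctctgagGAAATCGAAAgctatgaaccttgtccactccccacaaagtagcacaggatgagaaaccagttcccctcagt
Ifi214: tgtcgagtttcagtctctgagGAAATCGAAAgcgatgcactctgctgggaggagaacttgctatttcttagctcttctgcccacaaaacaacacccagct

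The cell classes differed in which of the genes they held. Levels are raw UMIs summed over the cells of a class in 1 library and scaled to 1000000 UMIs of the same cells (CPM), and are compared between classes, not between genes. A higher sum can come from more expressing cells or from more RNA in each, and the sum alone cannot tell these apart. A gene has a fixed leading class when the same class was highest in all 3 libraries and each ratio to the next class had an interval above 1. A fixed leading class was found for 16 of the 33 genes, against 20.8% of the 13129 genes measured with at least 20 UMIs. The leader was the neutrophil-like class for 8 (5.58% of all genes) and the monocyte-like class for 6 (5.83%). T-like cells led for 1 (2.51%), NK-like cells for 1 (3.42%) and B-like cells for 0 (3.48%). TMM scaling of the classes to each other centres on genes that differ little. It raised neutrophil-like values by 0.28, 0.88 and 0.98 on the log2 scale, the most of any class in each library. The neutrophil-like class could therefore not lose its first place under TMM. TMM scaling changed the division to 9 neutrophil-like, 1 monocyte-like and 3 T-like leaders. Of the 16 calls 10 were kept, among them all 8 neutrophil-like calls. Most monocyte-like calls therefore depend on the scaling, with Phf11d as the monocyte-like call that held under both. The NK-like call of Gbp7 was not kept either. A call that was not kept need not mean a reversed order of classes.

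**Figure D1:**
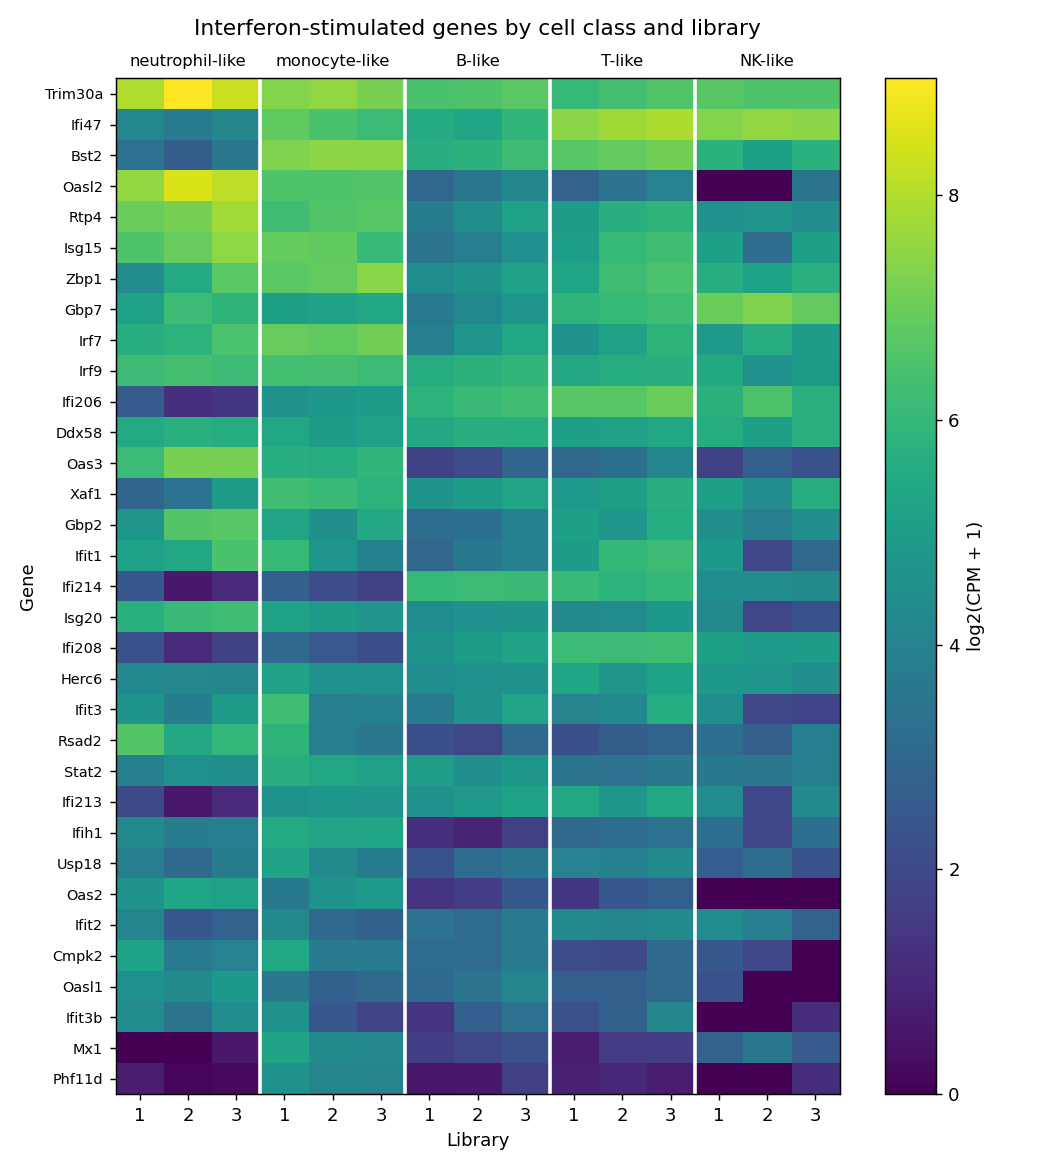
Heat map of log2(CPM + 1) of the 33 interferon-stimulated genes (rows, by mean CPM) in 5 cell classes and libraries 1, 2 and 3 (columns). Oasl2, Oas3 and Trim30a are brightest in neutrophil-like cells, Bst2 and Irf7 in monocyte-like cells, Ifi208 in the T-like and Gbp7 in the NK-like class.

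The 4 oligoadenylate synthetase genes of the set, Oasl1, Oasl2, Oas2 and Oas3, were neutrophil-led. Oas1a, a relative outside the set, was monocyte-led, at 4.70, 3.79 and 1.98 times the next class. Oasl2, an interferon-induced member of the OAS-like branch, reached 188, 367 and 281 CPM in the neutrophil-like class (libraries 1, 2 and 3) against 92.5, 93.6 and 95.5 in the monocyte-like class. Its ratio between the 2 classes was 2.04, 3.92 and 2.95. B- and T-like cells held between 6.30 and 16.7 CPM of Oasl2, so the lymphocytes were low in every library. Oas3 followed the same order with 69.7, 143 and 143 CPM in neutrophil-like and 51.5, 47.4 and 60.3 in monocyte-like cells. Oas2 levels were 23.9, 39.5 and 34.9 CPM in the neutrophil-like class against 11.7, 24.1 and 28.5 in the monocyte-like class, and NK-like cells gave 0 UMIs of it in all libraries, which allows up to 2.33, 8.47 and 3.84 CPM. For Oasl1 the ratio to the next class was 1.97, 1.83 and 1.72. The neutrophil-like lead in these 4 genes was also called under TMM scaling, which raises that class most and so gives no separate support.

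Another 4 neutrophil-led genes act on RNA, membranes or signalling. Rsad2 reached 96.8, 42.7 and 61.7 CPM in the neutrophil-like class, against 57.4, 14.1 and 11.05 in monocyte-like cells. Isg20, an exonuclease that degrades RNA, had neutrophil-like levels of 52.3, 68.3 and 73.9 CPM, 1.44, 2.35 and 2.74 times the level of the next class. Trim30a, a ubiquitin ligase that dampens inflammatory signalling, reached 247, 525 and 317 CPM in the neutrophil-like class against 165, 186 and 145 in monocyte-like cells. Rtp4, which restrains flaviviruses, reached 124.5, 145.9 and 218 CPM in the neutrophil-like class, 1.63, 1.53 and 2.13 times the monocyte-like level. In each of these genes the neutrophil-like class was the highest in all libraries, but the size of the lead varied by library.

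Monocyte-led genes were a transcription factor pair, sensors and a membrane tether. Irf7, the factor that amplifies type I interferon production, reached 121, 112 and 134 CPM in the monocyte-like class, against 48.4, 56.3 and 88.8 CPM in the neutrophil-like class. Stat2, a subunit of the ISRE-binding complex, led by 1.58, 1.84 and 1.33 times. Ifih1 (MDA5, a sensor of long double-stranded RNA) stood at 44.6, 38.0 and 38.4 CPM and was 2.47, 2.84 and 2.85 times the neutrophil-like level. It was lowest in B-like cells, at 1.30, 0.882 and 2.30 CPM. Zbp1, a sensor of Z-form nucleic acids, stood at 104, 115 and 170 CPM. Bst2 (tetherin, which holds budding virus at the membrane) reached 155, 174 and 178 CPM in the monocyte-like class. T-like cells held 101, 115 and 139 CPM of Bst2, and neutrophil-like cells 9.68, 5.31 and 11.2. Phf11d reached 23.1, 16.3 and 15.7 CPM in the monocyte-like class and was 29.3, 16.5 and 6.82 times the next class, which held 3 to 18 UMIs of it. Mx1, a dynamin-like antiviral GTPase, was highest in monocyte-like cells of every library (35.9, 18.8 and 16.98 CPM), without a fixed call. Neutrophil-like cells gave 0, 0 and 6 UMIs of Mx1.

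Lymphocytes led in few genes. Ifi208 stood at 70.9, 73.1 and 74.7 CPM in T-like cells, at least 2.07 times the next class in each library, and at 3.87, 1.15 and 2.35 in neutrophil-like cells. Ifi214 stood at 65.3, 70.2 and 66.4 CPM in B-like and 69.3, 57.0 and 63.2 in T-like cells, against at most 4.52 in neutrophil-like cells. Ifi47, an immunity-related GTPase, had T-like levels of 175, 216 and 244 CPM beside NK-like levels of 163, 189 and 174. These 2 classes were not told apart in libraries 1 and 2, where the ratios were 1.07 and 1.14. Gbp7 reached 129, 155 and 116 CPM in the NK-like class and was 2.20, 2.13 and 1.57 times the next class. Irf9, the DNA-binding subunit of the ISRE complex, lay between 22.6 and 81.7 CPM. Ddx58 (RIG-I, a sensor of short double-stranded RNA) lay between 31.3 and 52.4 CPM in all classes and libraries, with ratios of the first to the second class of 1.05, 1.03 and 1.08.

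The other genes without a fixed leading class included the Ifit family, whose proteins bind viral RNA and hold back its translation. Ifit1 was highest in monocyte-like cells of library 1 (66.0 CPM), T-like cells of library 2 (63.9) and neutrophil-like cells of library 3 (86.2). Ifit3 was highest in monocyte-like cells of library 1 (74.1 CPM), B-like cells of library 2 (23.5) and T-like cells of library 3 (47.9). Ifit2, Ifit3b, Isg15 and Gbp2 also changed their leading class with the library. Isg15 stood at 92.9, 121.5 and 180 CPM in neutrophil-like and 117.5, 112 and 67.8 in monocyte-like cells, and Gbp2 at 26.5, 97.0 and 102 and at 37.6, 21.2 and 42.7. Cmpk2, a mitochondrial nucleotide kinase beside Rsad2 on chromosome 12, stood at 36.8, 12.4 and 14.9 CPM in neutrophil-like and 42.1, 11.8 and 12.7 in monocyte-like cells. Xaf1 had monocyte-like levels of 75.2, 69.2 and 56.1 CPM and T-like levels of 28.5, 33.9 and 50.9. Usp18 had monocyte-like levels of 36.2, 18.8 and 13.4 CPM and T-like levels of 15.1, 14.8 and 19.0. Ifi206 had T-like levels of 101, 102 and 124 CPM and Ifi213 of 42.9, 26.7 and 43.2, against at most 5.16 and 3.23 in neutrophil-like cells. Herc6, which attaches Isg15 in mice, lay between 16.5 and 39.2 CPM in all classes and libraries.

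The libraries were then set beside each other within each class. A pair of libraries counts as apart for a gene when the highest is at least 1.5 times the lowest and the interval of the ratio lies above 1. For a whole class, shares of all genes are for the main setting with all 3 libraries. None is given for other settings or with cells or a library left out. In B-like cells 21 of the 33 genes were apart, against 10.5% of 11270 genes, and library 3 was the highest for all 21. Of all genes 5.35%, 2.62% and 2.52% were apart with library 1, 2 or 3 highest. In T-like cells 15 of 32 were apart (13.4% of all genes), again with library 3 highest in all 15. The shares of all genes were 6.23%, 3.69% and 3.48% for the 3 libraries. Summed over the 33 genes, B-like cells stood at 685 CPM (673 to 697), 791 (768 to 815) and 1007 (985 to 1029) in libraries 1, 2 and 3. T-like cells stood at 1138 (1112 to 1164), 1329 (1288 to 1370) and 1650 (1613 to 1688). Without library 3, 6 genes were apart in B-like and 7 in T-like cells, and without library 1, 8 were apart in T-like cells. The median gene of the set lay 0.48 (B-like) and 0.33 (T-like) above the median of all genes in library 3, as a log2 deviation from the mean of the 3 libraries.

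The genes apart in B-like cells included Ifit3, Ifit3b, Irf7, Rtp4 and Isg15. Ifit3 stood at 11.8, 23.5 and 37.7 CPM, and Ifit3b at 1.57, 5.47 and 9.45. Irf7 stood at 14.0, 25.8 and 41.1 CPM, Rtp4 at 13.4, 21.2 and 35.4, and Isg15 at 10.2, 14.1 and 22.9. The ratio of library 3 to library 1 was 3.19 for Ifit3 (2.67 to 3.81), 2.93 for Irf7 (2.48 to 3.46) and 2.24 for Isg15 (1.82 to 2.77). In T-like cells Ifit3 stood at 15.6, 17.5 and 47.9 CPM and Isg15 at 32.3, 66.2 and 76.0. Zbp1 stood at 39.2, 73.5 and 88.7 CPM there, and library 3 was 2.26 times library 1 (1.93 to 2.66). Ifi214 was not apart in either lymphocyte class. Of the receptors and kinases of the pathway, 0 of 8 measured were apart in B-like cells. With 10.5% of all genes apart, a count of 0 among 8 does not mark them out from other genes. Of the 84 further interferon-induced genes listed, 71 were measured and 17 were apart, 13 of them highest in library 3 (2.52% of all genes).

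The difference was present within single clusters. Between libraries 1 and 3 the summed ratio was 1.59 (1.52 to 1.66), 1.55 (1.45 to 1.64), 1.31 (1.23 to 1.40) and 1.35 (1.23 to 1.47) in the B-like clusters led by Mzb1, Fcer2a, Lynx1 and Sox4. Of the genes measured in these clusters, 19 of 30, 17 of 30, 6 of 27 and 8 of 26 were higher in library 3, against 2.54%, 2.53%, 2.18% and 2.57% of all genes. Higher in library 1 were 0, 0, 0 and 1 of them, against 3.29%, 2.51%, 3.98% and 3.5% of all genes. The T-like clusters led by Ly6c1 and Ccr9 gave 1.48 (1.41 to 1.55) and 1.41 (1.35 to 1.48), with 12 of 31 and 12 of 30 genes higher in library 3 (4.04% and 3.61% of all genes) and 0 in library 1 (5.06% and 4.85%). In an unnamed cluster led by Cxcr3 the ratio was 1.68 (1.56 to 1.81), with 13 of 25 genes higher in library 3 (3.45%) and 0 in library 1 (3.5%). The cluster led by Fcer2a came mostly from library 1 (1801 of 2307 cells). Without it, 19 of 33 genes were apart in B-like cells, 18 with library 3 highest. Platelet markers (9 of 9 with UMIs) summed to 3796, 1637 and 2026 CPM in B-like cells and to 2996, 1206 and 1336 in T-like cells of libraries 1, 2 and 3. Neutrophil markers (13 to 18 of 18 with UMIs) summed to 102, 1196 and 1002 CPM in B-like and 89.5, 887 and 737 in T-like cells. From library 1 to library 3 they rose, as did the 33 genes, and from library 2 to library 3 they fell while the 33 genes rose. Erythroid markers (8 or 9 of 9) summed to 1732, 847 and 1708 CPM in B-like and 744, 2964 and 2272 in T-like cells. The part of these 3 lists in the differences between libraries was not tested.

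**Figure D2:**
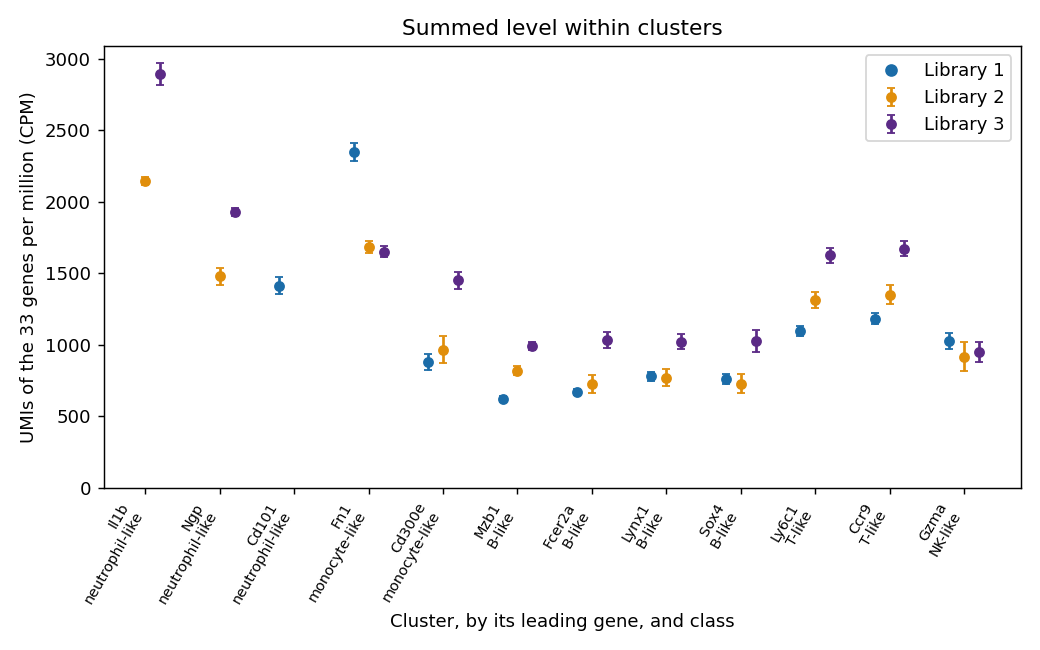
Summed UMIs of the 33 genes, in CPM, in each cluster of the 5 classes, by library; bars are exact 95% Poisson intervals, and libraries with under 50 cells in a cluster are left out. Library 3 is highest in every B- and T-like cluster and in the monocyte-like cluster led by Cd300e (1451 CPM), while library 1 is highest in the one led by Fn1 (2348 CPM), whose makeup differed by library.

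In monocyte-like cells the order of the libraries depended on which cells were counted as the class. Over the whole class 17 of 33 genes were apart (26.8% of all genes), 14 of them highest in library 1 (14.2%), 0 in library 2 (6.27%) and 3 in library 3 (6.3%). Without library 1, 3 genes were apart. With cells thinned to 1500 UMIs, 12 of 29 were apart, 7, 2 and 3 of them highest in libraries 1, 2 and 3. At Leiden resolution 2, a finer clustering, 17 were again apart, but with 3, 6 and 8 highest in libraries 1, 2 and 3. The median deviation of the genes from the mean of the libraries turned from 0.25, -0.12 and -0.21 to -0.27, 0.17 and 0.06 on the log2 scale.

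At resolution 1 the class held 2 clusters. In the cluster led by Fn1 and Vcan, genes of classical monocytes, the summed level was 2348, 1683 and 1650 CPM. There 17 of 33 genes were higher in library 1 than in library 3 (11.1% of all genes) and 1, Oas2, was higher in library 3 (8.16%). In the cluster led by Cd300e and Ace, genes of non-classical monocytes, the summed level was 878, 964 and 1451 CPM. There 15 of 28 genes were higher in library 3 (5.55%) and 0 in library 1 (5.91%). Ifit3 stood at 106 and 15.1 CPM in libraries 1 and 3 of the Fn1-led cluster, and at 4.44 and 12.9, from 5 and 21 UMIs, in the Cd300e-led cluster. Isg15 stood at 164 and 79.9 CPM in the former and 16.0 and 34.9 in the latter. Irf7, at 64.0 and 134 CPM, and Zbp1, at 100.4 and 216, were higher in library 3 in the Cd300e-led cluster. Ifit3, Isg15, Xaf1 and Ifi47 were called in both clusters, in opposite directions, and Oas2 was higher in library 3 in both.

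The Fn1-led cluster was not made up alike in the 3 libraries. At resolution 2, 215 of its 224 library 1 cells (96.0%) fell into a cluster led by Cd209a, a lectin of dendritic and monocyte-derived cells, which was left unnamed because markers of another type lead it. Of its cells in libraries 2 and 3, 321 of 351 (91.5%) and 261 of 308 (84.7%) fell into a cluster led by Vcan. The marker Vcan stood at 82.3, 494 and 563 CPM in the Fn1-led cluster, Cd209a at 62.5, 57.3 and 2.71, and the 9 conventional dendritic markers summed to 647, 787 and 911 CPM. Other markers did not follow Vcan. Fn1 stood at 1524, 1447 and 1426 CPM there, Clec10a at 36.1, 46.2 and 16.5, and Flt3 at 23.5, 27.6 and 16.9. The 16 monocyte markers summed to 46396, 48484 and 35580 CPM. Both clusters were picked for a closer description after seeing the data. The Vcan-led cluster had 7 cells in library 1, too few to compare, and a summed level of 1667 CPM (1626 to 1709) and 1646 (1606 to 1686) in libraries 2 and 3. The Cd209a-led cluster had 244, 45 and 48 cells and a summed level of 2183 (2127 to 2240), 1839 (1719 to 1966) and 2119 CPM (1980 to 2266). Its intervals of libraries 1 and 3 overlapped. Conventional dendritic markers summed to 748, 2256 and 1922 CPM in it and monocyte markers to 41923, 24651 and 11910, so it too differed by library. Fn1 stood at 1440, 396 and 126 CPM in the Cd209a-led cluster, whose best match among the marker lists was the monocyte list (12 of 16 markers met). In the Fn1-led cluster, library and cell makeup therefore cannot be told apart. All 180, 66 and 208 cells of the Cd300e-led cluster stayed in 1 cluster at resolution 2.

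**Figure D3:**
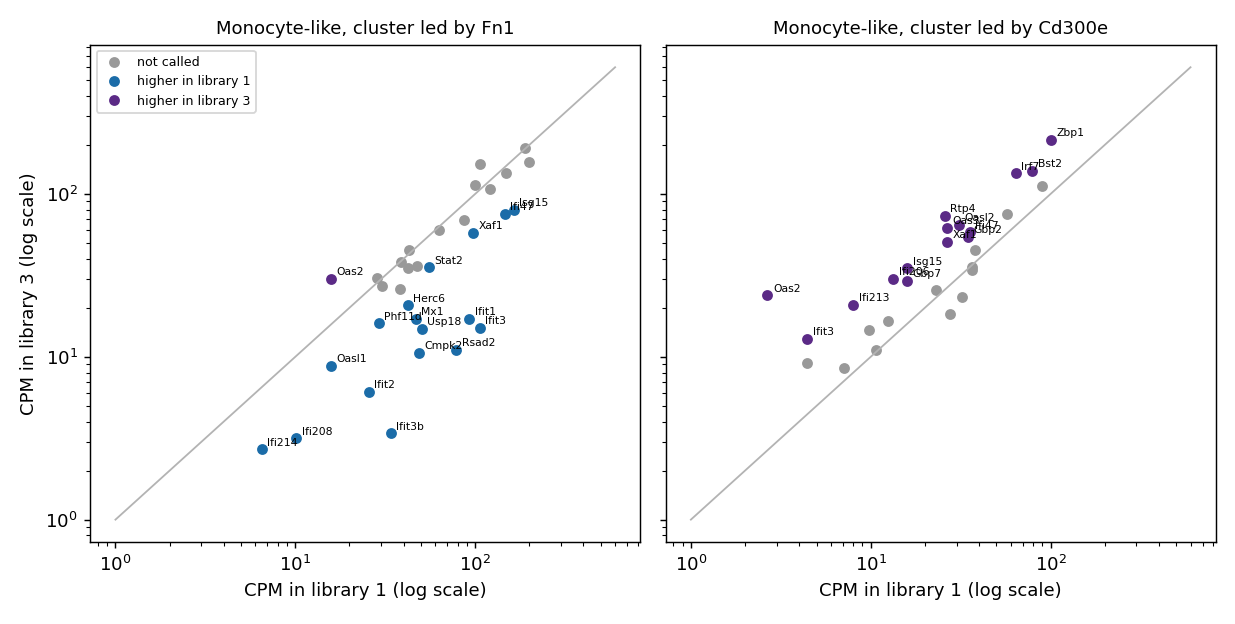
CPM of each gene in library 1 (horizontal, log scale) and library 3 (vertical, log scale) in the 2 monocyte-like clusters; the line marks equal levels and coloured points are genes at least 1.5 times apart with an interval above 1. In the Fn1-led cluster 17 genes lie below the line, and in the Cd300e-led cluster 15 lie above it. The Fn1-led cells of library 1 fell mostly into another cluster at Leiden resolution 2.

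In the Fn1-led cluster much of the Ifit1, Ifit3 and Ifit3b level of library 1 sat in few cells, which were chosen by these same 33 genes. By the score of 7 or more of the 33 genes in a cell thinned to 1500 UMIs, 22 of its 224 cells in library 1 were high-scoring (9.82%), against 0 of 180 in the Cd300e-led cluster, which allows a share of up to 1.67%. At resolution 2, 20 of the 22 were in the unnamed Cd209a-led cluster, where 20 of 241 cells scored in library 1 (8.30%, 5.14 to 12.5), 0 of 43 in library 2 and 1 of 42 in library 3. Those 22 cells held 82.0% of the Ifit3 UMIs, 80.6% of the Ifit1 UMIs and 90.5% of the Ifit3b UMIs of all library 1 monocyte-like cells, with 6.99% of the class's UMIs. Across the class, Ifit3 stood at 74.1, 13.6 and 14.5 CPM with these cells and at 14.4, 7.20 and 8.92 without the high-scoring cells of each library. Rsad2 stood at 57.4, 14.1 and 11.05 with them and 21.3, 7.43 and 8.08 without. The summed level of the whole class turned from 1887, 1615 and 1597 CPM to 1270, 1397 and 1482. Library 1 was the highest with the high-scoring cells and the lowest without them. A fall was built in, since the same 33 genes chose these cells, and their share was largest in library 1. The class also holds the Cd300e-led cluster, 180 of 404, 66 of 417 and 208 of 516 cells, at 878, 964 and 1451 CPM. The order without high-scoring cells is therefore not that of the Fn1-led cluster alone. Across the class without high-scoring cells 14 of 33 genes were apart, 5 of them highest in library 1 and 8 in library 3.

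Within clusters, neutrophil-like cells could be compared only between libraries 2 and 3, since library 1 had its own cluster. Over the class 24 of 31 genes were apart, but so were 61.5% of all genes, and the Cd101-led cluster of library 1 cannot be told apart from that library. Of the 24, 8, 5 and 11 were highest in libraries 1, 2 and 3 (49.2%, 6.91% and 5.36% of all genes). With TMM scaling of libraries these were 29, with 4, 3 and 22. The shares of all genes given here are for CPM over all 3 libraries and do not apply to that scaling. Without library 1, 10 genes were apart, without library 2, 13, and without library 3, 15. Within the cluster led by Il1b the summed level was 2147 CPM in library 2 and 2894 in library 3, a ratio of 1.35 (1.31 to 1.39). There 10 of 27 genes were higher in library 3 and 0 in library 2 (5.72% and 2.97% of all genes). Within the cluster led by Ngp, a granule gene of immature neutrophils, it was 1480 and 1928 CPM, a ratio of 1.30 (1.25 to 1.36), with 12 of 29 genes higher in library 3 and 0 in library 2 (4.47% and 9.67%). Zbp1 stood at 45.9 and 121 CPM in the Il1b-led and at 43.0 and 101 in the Ngp-led cluster. Isg15 stood at 128 and 246 CPM in the Il1b-led cluster, and Rtp4 at 153 and 271. Ifit3 was called in the Ngp-led cluster, at 5.53 and 31.1 CPM. In both clusters the higher calls were all in library 3.

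NK-like cells had the fewest UMIs, between 354267 and 1285912 per library, against 18440992 in the deepest class, the B-like cells of library 1. Their summed level was 1027 (972 to 1083), 917 (820 to 1023) and 949 CPM (882 to 1020). Of 23 genes, 8 were apart (12.7% of all genes), 6, 1 and 1 of them highest in libraries 1, 2 and 3 (6.14%, 4.09% and 2.51%). In library 1 the 2 high-scoring cells held 24 of 35 Ifit1 UMIs and 23 of 28 Ifit3 UMIs, and without high-scoring cells 5 of 20 genes were apart, 0 of them highest in library 1. Without library 1, 3 genes were apart, and without library 2, 4.

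Single cells were scored by how many of the 33 genes they showed. Each cell was thinned at random to 1500 UMIs, so that deep cells did not score higher, and shallower cells were left out (213 neutrophil-, 12 monocyte-, 213 B-, 32 T- and 6 NK-like cells). Cells with at least 7 of the 33 genes are called high-scoring. This is a range of a score and not a cell type: 158 neutrophil-like cells had 6 genes and 101 had 7. High-scoring cells were 250 of 5397 neutrophil-like cells (4.63%, 4.09 to 5.23), 45 of 1325 monocyte-like cells (3.40%, 2.49 to 4.52) and 67 of 2243 T-like cells (2.99%, 2.32 to 3.78). They were 86 of 7291 B-like cells (1.18%, 0.945 to 1.45) and 2 of 528 NK-like cells (0.379%, 0.0459 to 1.36). The 2 were in library 1, and 0 of 79 and 0 of 155 in libraries 2 and 3 allow shares of up to 3.80% and 1.94%. None of 265 erythroid-like cells scored, which allows a share of up to 1.13%. Free RNA in droplets gives some UMIs in every cell. Erythroid-like cells reached at most 4 of the genes, but they are no measure of free RNA in white cells. They held Rsad2 and Isg20 above the levels of all 5 large classes, and haemoglobin genes led their cluster.

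The share of high-scoring cells differed between libraries in B- and T-like cells. In B-like cells it was 0.569% (0.361 to 0.853), 1.41% (0.851 to 2.19) and 2.31% (1.68 to 3.09) in libraries 1, 2 and 3, from 23, 19 and 44 cells. In T-like cells it was 1.25% (0.665 to 2.12), 2.51% (1.30 to 4.34) and 5.83% (4.23 to 7.79), from 13, 12 and 42 cells. The intervals of libraries 1 and 3 did not overlap in either class. In neutrophil-like cells it was 3.29%, 4.25% and 5.61%, and the intervals of the libraries overlapped. In the Il1b-led cluster it was 4.49% in library 2 and 10.4% in library 3 (119 and 53 cells). In monocyte-like cells it was 5.45% (3.44 to 8.13), 3.38% (1.86 to 5.61) and 1.78% (0.815 to 3.34). Without thinning, the monocyte-like shares had the opposite order, at 43.1%, 58.0% and 68.2%, with median depths of 8636, 10985 and 11782.5 UMIs. Without thinning the shares were 6.08%, 5.65% and 10.99% in B-like, 22.0%, 27.9% and 36.5% in T-like and 8.38%, 17.4% and 40.4% in neutrophil-like cells. The median depths were 3938, 3791 and 3591 UMIs in B-like, 5966, 6170 and 6179 in T-like and 2752, 3253.5 and 5257 in neutrophil-like cells. The high-scoring cells held 6.06%, 13.1% and 18.2% of the 33 genes' UMIs in B-like cells and 8.81%, 12.6% and 24.1% in T-like cells. Without them the summed level was still 647, 697 and 843 CPM in B-like and 1053, 1189 and 1330 in T-like cells. By this sum library 3 stayed the highest outside the high-scoring cells, though cells scoring just below the cut remain there. In them 13 of 33 genes were apart in B-like (all highest in library 3) and 14 of 31 in T-like cells. Of the latter 2, 1 and 11 were highest in libraries 1, 2 and 3. No share of all genes is given beside these counts. The median log2 deviation of the genes in library 3 fell from 0.46 to 0.34 in B-like and from 0.33 to 0.17 in T-like cells.

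Each gene was read in cells scored on the other 32 only. A gene counts as higher at a ratio of at least 1.5 with an interval above 1, in the 11 combinations of class and library with at least 10 high-scoring cells. Of 316 such readouts with at least 20 UMIs, 299 were higher and 0 were lower. The 33 genes were chosen with earlier results of these data known, so these counts are not an independent test of them. In B-like cells 30 of 32, 26 of 27 and 30 of 31 genes were higher in libraries 1, 2 and 3, against 2.39%, 2.5% and 3.23% of genes outside the set. In T-like cells 26 of 30, 18 of 21 and 31 of 31 were higher (2.38%, 3.19% and 3.1%). In neutrophil-like cells these were 22 of 25, 27 of 27 and 28 of 28 (3.33%, 3.73% and 5.12%). In monocyte-like cells of libraries 1 and 2 they were 32 of 33 and 29 of 31 (4.2% and 2.83%). Of the genes outside the set, 1.03%, 1.35% and 1.63% were lower in high-scoring neutrophil-like cells, 7.14% and 2.31% in monocyte-like, 0.757%, 0.73% and 1.28% in B-like and 0.736%, 0.615% and 1.35% in T-like cells. With the genes divided by alphabet, 17 scoring and 16 read out, the other 16 were 7.60, 7.08 and 5.89 times higher in scoring B-like cells and 2.84 to 5.38 times in neutrophil-like cells. Under a stricter filter (500 or more genes, mitochondrial share of 5% or below), 1 B-like cell scored in library 2, with 1 UMI of the 16 genes, and the ratio there was 0.857 (0.0216 to 4.81).

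Ifit3b, Ifit3, Ifit1 and Rsad2 had the highest median ratios, and Irf9 the lowest. Over the combinations the median ratio was 42.2 for Ifit3b, 37.5 for Ifit3, 28.6 for Ifit1, 24.6 for Rsad2, 17.4 for Mx1, 17.1 for Isg15 and 16.8 for Usp18, the protease that removes Isg15 and blocks the receptor. It was 4.33 for Stat2, 3.70 for Trim30a, 3.39 for Ddx58 and 2.53 for Irf9. Each median covers the combinations in which the gene was measured, 4 for Mx1, 9 for Rsad2 and 10 or 11 for the others named. Ifit3 helped to score the cells in which Ifit3b was read, and the reverse, and their UMIs may not be fully told apart. Irf9 was higher in 6 of 11 combinations. In B-like cells Ifit3 stood at 847 CPM in high-scoring and 7.72 in other cells of library 1, at 916 and 12.4 in library 2, and at 831 and 22.2 in library 3. The level in high-scoring B-like cells lay between 831 and 916 CPM, while the level in the other cells was lowest in library 1 and highest in library 3. Isg15 gave 338 and 8.38 CPM, 377 and 9.38, and 475 and 12.9 in the same order.

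**Figure D4:**
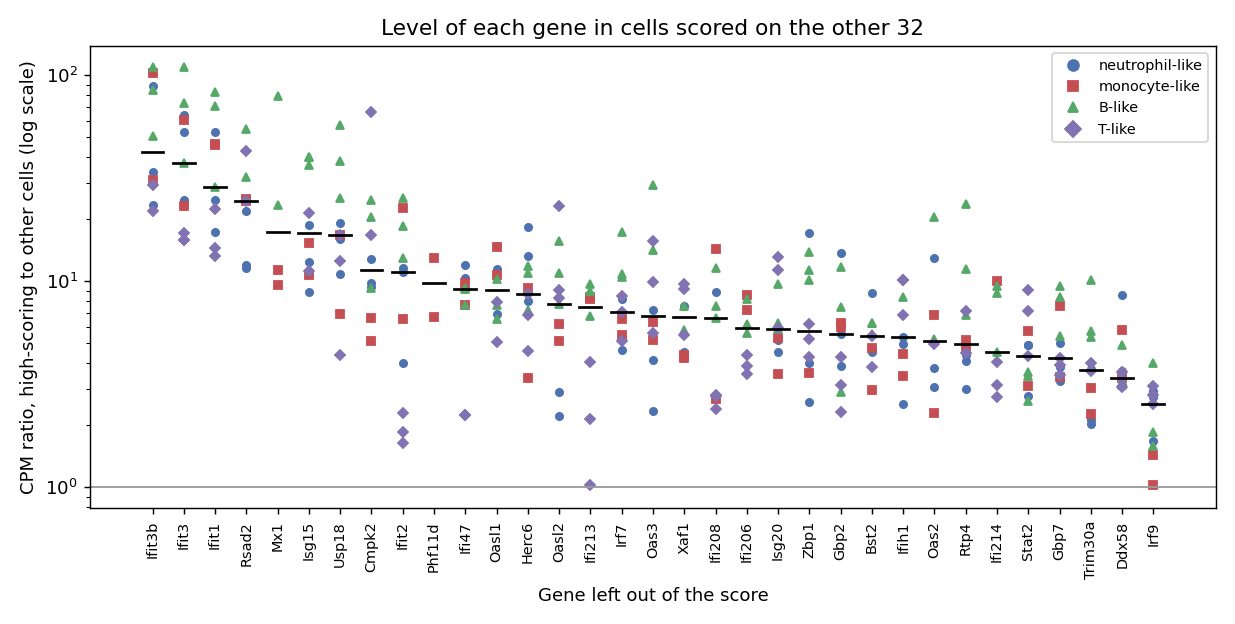
Ratio of CPM in high-scoring to other cells (vertical, log scale) for each gene (horizontal) in cells scored on the other 32 genes; a point is 1 class in 1 library with at least 20 UMIs, a black bar the median. Ifit3b (42.2) and Ifit3 (37.5) stand highest and Irf9 (2.53) lowest.

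The rest of the pathway was read in the same cells. In each single combination 2.38% to 5.12% of genes outside the set were higher, so a count of 0 does not set a gene apart. No share of all genes over several combinations is given. Of the interferon genes listed, only Ifng had 20 UMIs, and NK-like cells led it, at 71.5, 25.4 and 92.1 CPM, from 92, 9 and 72 UMIs. In neutrophil- and T-like cells it had at most 1 UMI per library. Of the receptors and kinases, 8 of 9 genes were higher in none of the combinations, with median ratios of 1.12 for Ifnar1, 1.15 for Ifnar2 and 1.03 for Jak1. Jak2 was higher in 2 of 11. Among the transcription factors, Irf1 was higher in 7 of 11 and Irf2 in 4 of 11, while Irf3 was higher in 0. Among sensors and adaptors Dhx58 (LGP2, a partner of Ifih1) was higher in 9 of 9, with a median ratio of 7.36, and 5 of 8 genes were higher in none. Of the feedback inhibitors, Socs1 was higher in 7 of 10 (median 6.53) and Socs3 in 0 of 11 (median 0.914). Of 81 further interferon-induced genes measured, 10 were higher in all 11 combinations. Among these were Slfn5 (median 9.99), Eif2ak2, the kinase PKR (7.66), Rnf213 (4.29) and Ifi27l2a (3.33).

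Outside the lists, the 10 genes with the highest lower bound of the ratio in neutrophil-like cells were Slfn4, Trim12a, Neat1, Malat1, Trim12c, Cdk2ap2, B2m, Marcks, H2-T23 and Il1b. Slfn4 was 6.59, 3.52 and 2.34 times higher in high-scoring cells of libraries 1, 2 and 3. Trim12a was 3.03, 1.98 and 1.91 times higher and H2-T23, a non-classical class I gene, 1.73, 1.95 and 1.96 times. The nuclear RNA Malat1 was 1.27, 1.22 and 1.19 times higher. High-scoring and other cells had like depth in B-like cells, with median UMIs of 4011 and 3963.5 in library 1 and 3632.5 and 3635 in library 3. Their median share of mitochondrial UMIs was 6.89% and 6.96%, and 5.94% and 6.07%. Their median doublet score was 0.0394 and 0.0944, and 0.0353 and 0.0615. In neutrophil-like cells of library 3 high-scoring cells were shallower (4442 against 5432 UMIs), and in monocyte-like cells of library 1 deeper (10529.5 against 8320.5). In monocyte-like cells of library 2, erythroid markers summed to 30945 CPM in high-scoring and 2366 in other cells, and neutrophil markers to 23581 and 13693. The part of these values in the counts was not tested.

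Clustering with the interferon genes included gave a separate B-like cluster led by Ifit3, Ifit3b and Usp18. It had 84, 71 and 135 cells in libraries 1, 2 and 3, of which 82, 70 and 135 were B-like cells deep enough to be scored. It held 80 of the 86 high-scoring B-like cells (93.0%), and these made up 27.9% of those scored in it. The same genes entered the clustering and the score, so this overlap was built in and is no separate result. Smaller cell types held single members at high levels. Erythroid-like cells had Rsad2 at 201, 362 and 604 CPM, from 156, 151 and 241 UMIs, and Isg20 at 188, 316 and 261. They had 0 UMIs of Mx1, Oas2, Ifih1 and Phf11d in all libraries, which allows up to 3.87, 7.19 and 7.52 CPM. Isg15 stood there at 60.6, 67.1 and 228 CPM. Dendritic-like cells, 29, 18 and 18 in number, had Bst2 at 721, 755 and 810 CPM, but their cluster was led by Cd209a, Cd209d and Siglech, the last a plasmacytoid marker. For Rsad2 and Isg20 in erythroid-like cells and Bst2 in dendritic-like cells, these levels were above those of all 5 large classes.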

How the data were processed

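The deposited matrix holds raw UMI counts per gene and barcode of 3 libraries, made by the authors with Cell Ranger (4.0.0 per the submitters' processing notes, 6.0.2 per the file headers). The notes also name Trimmomatic 0.39, Seurat 3.0, R 4.0.2 and builds GRCm38 and mm10. No source used here says how cells were called.

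From these counts, barcodes showing 200 or more genes, with mitochondrial UMIs at 10% or below, were kept. Doublets were taken at a Scrublet score above 0.25 in every library, because the automatic threshold marked 7 of 7122 cells in library 1, and 668 of 18885 cells (3.54%) were left out. Cells were clustered with scanpy 1.11.5 (2000 variable genes, 30 components, 15 neighbours, Leiden resolution 1) and named from at least 3 markers. The members and gene lists were chosen with earlier results of these data known. Named genes are all 33 members, list genes with a fixed leading class or libraries apart, and the 10 other genes with the highest lower bound in neutrophil-like cells. Intervals came from scipy 1.17.1, TMM factors from edgeR 4.0.16 in R 4.3.3, and the scripts were tested on simulated data. A sum of 20 UMIs counts as measured. Gene positions are from GENCODE M21 (GRCm38) and promoters from RefSeq. With 1 library per group and no tie of libraries to groups, no test between groups was made. A further condition named in the series text was not analysed here. The result for 1 listed gene is not reported here.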

Additional observations from a re-analysis of the deposited data

How the results depend on the processing

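No paired analysis was possible because each group has 1 library and the barcode endings carry no group or replicate number. Of 183 recomputed values, 1 turned direction, 119 stayed within the limits set for their kind and 63 moved. The count of monocyte-like genes apart stayed at 17 at Leiden resolution 2, but the library that was highest for most of them turned from 1 to 3. Depth limits NK-like cells most among the 5 classes, and few B-like cells passed the strict filter (at least 500 genes, at most 5% mitochondrial UMIs). The causes were not tested. Scaled by TMM, 1 gene was monocyte-led. In B-like cells 11 genes were apart under the strict filter and 13 without high-scoring cells. In NK-like cells these were 3 at 50 UMIs, 4 thinned and 5 without high-scoring cells. Leaving out library 1, chosen after seeing the data like the next 2, gave 10 in neutrophil-, 3 in monocyte-, 8 in T- and 3 in NK-like cells. Without library 2 there were 13 in neutrophil- and 4 in NK-like cells, and without library 3, 15 in neutrophil-, 6 in B- and 7 in T-like cells.

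High-scoring cells changed in number with the rule. At 5 or more genes there were 690 neutrophil-, 122 monocyte-, 206 B-, 158 T- and 6 NK-like cells, and at 6 or more 408 neutrophil- and 130 B-like cells. At 8 or more there were 149 neutrophil-, 44 T- and 1 NK-like cells, and at 10 or more 58, 18, 30, 22 and 1 in the 5 classes. Thinned to 1000 UMIs the counts were 120, 20, 43, 27 and 1, thinned to 3000 they were 561, 193, 242, 206 and 9, and not thinned 1370, 768, 547, 635 and 43. By a share of 1% of UMIs they were 64, 13, 18, 9 and 1. The strict filter left 28 monocyte-, 9 B- and 26 T-like cells, and Leiden resolution 2 gave 25 monocyte-like cells. The ratio of the genes read out in scoring B-like cells was 10.1, 0.857 (turned, from 1 scoring cell) and 4.18 in libraries 1, 2 and 3 under the strict filter and 4.63, 5.73 and 4.51 at 3 or more scoring genes. It was 10.3 and 7.36 at 5 or more in libraries 1 and 3, and 11.4 and 10.2 in libraries 2 and 3 when the other 16 genes scored.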
